A study of Mus musculus with 8 samples.

Results

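Potassium channel genes were taken as the protein-coding mouse genes whose symbol begins with Kcn followed by a subfamily letter, which gave 94 of 21887 protein-coding genes with a position in the RefSeq table (GRCm38.p6, the mm10 build). Potassium channels let potassium ions leave or enter the cell and so set the resting voltage, the shape of the action potential and the rate of firing. Voltage-gated channels open on depolarization, inward rectifiers pass current best near rest, two-pore channels carry leak current, and a further class opens when calcium or sodium enters the cell. Auxiliary subunits, which form no pore, change how these channels are trafficked and gated. In relay neurons of the thalamus and in cortical and hippocampal neurons, different sets of these channels underlie burst and tonic firing.

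Accessible chromatin was measured by ATAC-seq, in which the transposase Tn5 cuts open DNA, in 8 libraries from C57Bl/6J mice that fall into 4 groups of 2. Fn14 knockout (KO) and wild-type (WT) littermates were untreated and were taken at postnatal day 27. Fn14, encoded by Tnfrsf12a, is the receptor of the cytokine TWEAK, and the labels do not describe the mutant allele. Their libraries came from coronal sections of flash-frozen brains. The sections held hippocampus and cortex besides the dLGN (dorsal lateral geniculate nucleus), which relays retinal input to the cortex. The other mice carried no stated mutation, received chow with PLX5562 (PLX chow), given to deplete microglia, or control chow from postnatal day 20, and gave microdissected dLGN at postnatal day 32. Each aliquot held 50000 nuclei of all cell types. The labels do not say whether the 2 libraries of a group came from separate mice, so p-values measure only the spread between these libraries.

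Each library gave a list of 248989 to 299822 peaks, and the sequencing depth is unknown. The 2 KO lists end just under the limit of 300000 peaks that the pipeline allowed. Overlapping peaks were merged, and in every library the 50000 regions ranked first by −log10 p, the authors' significance of a peak, were selected. The weakest selected region stood at 13.4 in WT 2 and at 33.0 in control chow 1, so selection ranks regions within a library and sets no common height. At the upper end of Tnfrsf12a neither KO library had a peak, and the other 6 libraries had one with a −log10 p from 8.02 to 25.3. No pair of libraries shared more than 0.223% of its peak intervals exactly. Among 8 lists of marker genes, Gad1 (inhibitory neurons) and Slc1a2 (astrocytes) had fewer regions in dLGN than in sections by the test described below, and Prox1 (hippocampal granule cells) and Rgs5 (mural cells) had more. None of the 8 thalamic, 9 microglial, 5 oligodendrocyte or 3 precursor markers tested passed between tissues. In the KO and chow comparisons 0 of 17346 genes passed by that test, so it says nothing of the markers there. The 9 cortical and hippocampal markers held 16 to 19 selected regions in sections and 11 to 13 in dLGN.

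The promoters of 5 members show the range of the data at gene starts. They are Kcnj2 (inward rectifier, the strongest promoter of the set), Kcna4 (a Shaker-type channel, with a higher rank in dLGN), Kcnab1 (a beta subunit, whose first listed start was selected only in dLGN), Kcnk13 (a two-pore channel known from microglia) and Kcnn4 (a calcium-activated channel known from immune cells, with no peak at its listed start). Each sequence, from RefSeq (GRCm38.p6), runs 5′ to 3′ from 250 bases before to 50 after the listed start, all on the plus strand, with CG dinucleotides in capitals. They lie at chr11:111065914-111066213, chr2:107290339-107290638, chr3:64948962-64949261, chr12:99964249-99964548 and chr7:24370013-24370312 in that order.
Kcnj2: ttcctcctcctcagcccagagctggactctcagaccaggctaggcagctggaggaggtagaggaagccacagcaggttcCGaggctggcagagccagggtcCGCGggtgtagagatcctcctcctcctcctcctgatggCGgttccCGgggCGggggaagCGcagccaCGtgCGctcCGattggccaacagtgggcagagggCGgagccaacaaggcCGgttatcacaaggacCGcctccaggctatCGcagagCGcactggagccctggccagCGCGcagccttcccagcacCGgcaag
Kcna4: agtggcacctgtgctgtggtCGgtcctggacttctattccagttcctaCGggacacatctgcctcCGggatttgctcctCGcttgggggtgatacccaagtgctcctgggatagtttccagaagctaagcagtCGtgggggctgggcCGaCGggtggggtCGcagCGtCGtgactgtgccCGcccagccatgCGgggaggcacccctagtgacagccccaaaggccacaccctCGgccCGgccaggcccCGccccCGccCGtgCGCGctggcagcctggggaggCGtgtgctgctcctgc
Kcnab1: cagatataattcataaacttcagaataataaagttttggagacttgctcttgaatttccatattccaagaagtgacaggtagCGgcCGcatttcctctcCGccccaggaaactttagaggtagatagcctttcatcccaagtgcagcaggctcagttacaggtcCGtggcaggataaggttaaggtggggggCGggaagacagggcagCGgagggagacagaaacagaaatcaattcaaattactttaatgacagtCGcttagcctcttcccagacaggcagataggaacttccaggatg
Kcnk13: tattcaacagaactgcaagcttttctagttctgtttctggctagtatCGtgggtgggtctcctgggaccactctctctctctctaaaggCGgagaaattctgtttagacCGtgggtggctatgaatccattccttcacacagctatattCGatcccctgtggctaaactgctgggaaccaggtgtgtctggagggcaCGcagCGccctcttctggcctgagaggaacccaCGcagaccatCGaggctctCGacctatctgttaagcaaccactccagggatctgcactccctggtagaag
Kcnn4: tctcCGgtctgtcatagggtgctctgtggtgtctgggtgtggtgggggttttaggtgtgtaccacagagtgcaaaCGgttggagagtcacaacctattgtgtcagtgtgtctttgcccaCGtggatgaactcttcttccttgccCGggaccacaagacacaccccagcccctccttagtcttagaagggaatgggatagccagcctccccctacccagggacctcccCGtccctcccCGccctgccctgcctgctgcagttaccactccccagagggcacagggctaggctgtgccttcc
The CG count is 18 at Kcnj2, 20 at Kcna4, 7 at Kcnab1, 9 at Kcnk13 and 6 at Kcnn4.

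A promoter was called occupied when a region lay within 500 bp of a RefSeq start, and 69 members with 94 starts had an entry. In 48 of the 69 (69.6%) some start had a peak in all 8 libraries, against 60.9% of 17492 genes. No start had a peak in any library in 7 members (10.1%, against 29.4% of all genes): Kcne2, Kcnj1, Kcnj12, Kcnj15, Kcnk18, Kcnmb3 and Kcnn4. Promoters selected in all 8 libraries were less frequent than among all genes, at 30 members (43.5%) against 51.1%. Of the 25 members without an entry, 7 (28.0%) had a gene end selected in every library, against 44.0% of such genes.

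At Kcnj2, which encodes a strong inward rectifier, the promoter region ranked between 1897 and 2770 among the 50000 regions of the section libraries and between 1125 and 1362 in dLGN. The strongest start of Kcnab2, a beta subunit of Shaker-type channels, ranked between 1465 and 3882 over the 8 libraries, and the tissues overlapped. The calcium-activated Kcnn3, Kcnj10 (the main inward rectifier of astrocytes) and Kcnk5 (an acid-sensitive leak channel) complete the 5 strongest promoters. The ranks of Kcnk5 were 7489 to 9310 in sections and 4532 to 5139 in dLGN, and those of Kcnn3 were 3850 to 6971 in sections and 8114 to 9973 in dLGN. The tissues were therefore separate at both genes, in opposite directions. The Kcnj10 promoter ranked from 6059 to 8431 in sections and from 6893 to 11179 in dLGN, which overlap.

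The Kcna4 promoter ranked 11225 and 8440 in KO, 10379 and 10424 in WT, 3063 and 4989 in PLX chow and 4676 and 4587 in control chow. All 4 dLGN ranks were thus ahead of all 4 section ranks, and Kcnh5, an ether-a-go-go channel, showed the same order (5268 to 6110 against 9174 to 14614). The first start of Kcnab1 was selected in all 4 dLGN libraries at ranks from 30878 to 46241 and in no section library. Weaker peaks were present there in every section library, with a −log10 p of 4.97 to 11.9. At Kcnk13 the promoter ranked 25478 and 29626 in PLX chow, 20023 and 20862 in control chow and 15986 to 18695 in sections.

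Over the 94 starts, the median CG count was 19 for the 34 starts selected in all 8 libraries and 6.00 for the 35 selected in none. Over all 21263 starts the same medians were 22.0 and 3.00. The letters GGGCGG stood on either strand in 47.9% of member promoters and 46.2% of all, TATAAA in 5.32% against 12.6%, and TGANTCA in 4.26% against 6.99%. TGACGTCA was in none of the member promoters and in 2.23% of all.

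**Figure D1:**
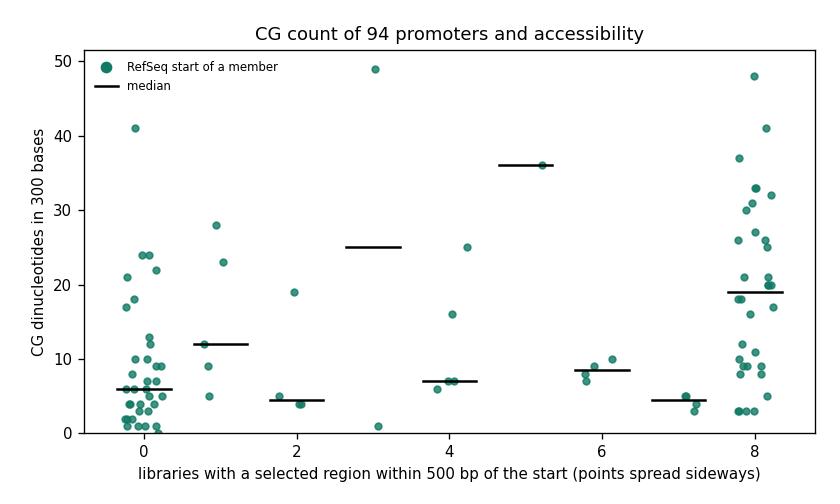
CG dinucleotides in the 300-base promoter (vertical axis) against the number of libraries with a selected region within 500 bp (horizontal axis), for 94 RefSeq starts of potassium channel genes, with medians as bars. The median is 6.00 at 0 libraries and 19 at 8 libraries, and both columns spread widely.

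For the gene as a whole, selected regions were counted in the gene body extended by 10 kb on each side. The median member was longer than the median gene (32.7 kb against 17.2 kb), held 2.82 regions per 100 kb against 3.08, and 72 of 94 members (76.6%) had a region in every library against 67.2% of all genes. In 43 members the window also held another protein-coding gene, so a region there is not the member's alone. Of the 652 regions at members, pooled over libraries, 145 (22.2%) were selected in all 8, against 25.6% of 90691 regions in all. The windows of Kcnj9 and Kcnj10 overlap, as do those of Kcnip1 and Kcnmb1, but no selected region fell in more than 1 window. Kcnj13, Kcnmb1 and the silent subunit Kcnv2 had no selected region in any library and were not tested.

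Region density differed widely between subfamilies, and so did window length. The 8 Kcna windows spanned 285 kb in all and the 8 Kcnh windows 1726 kb. The Kcnf1 window of 24.8 kb is mostly the 10 kb added on each side of a 4.79 kb gene. The part of gene length in these densities was not tested. The single Kcnf gene, Kcnf1, which encodes a silent subunit that modifies Kcnb channels, held 9.07 regions per 100 kb over the 8 libraries, the 8 Shaker-type Kcna genes 6.75, the 5 small Kcne subunits 4.55 and the 3 Kcnab beta subunits 4.03. Intermediate values were 3.61 for the 15 inward rectifiers (Kcnj), 3.12 for the 14 two-pore genes (Kcnk), 3.05 for the A-type Kcnd genes and 2.99 for the Kcnc genes of fast-spiking cells. The long Kcnq genes, which carry the M-current, had 2.17, the Kcnip genes 2.14, the ether-a-go-go type Kcnh genes 1.95 and the sodium-activated Kcnt genes 1.78. By count the richest windows were those of Kcnab1 (15 to 22 regions over the libraries), Kcnma1 (9 to 26), Kcnip1 (12 to 17) and Kcnip4 (8 to 21). By density, Kcnj9 led with 21.3 per 100 kb and Kcnj15 was lowest among members with any region, with 0.199.

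**Figure D2:**
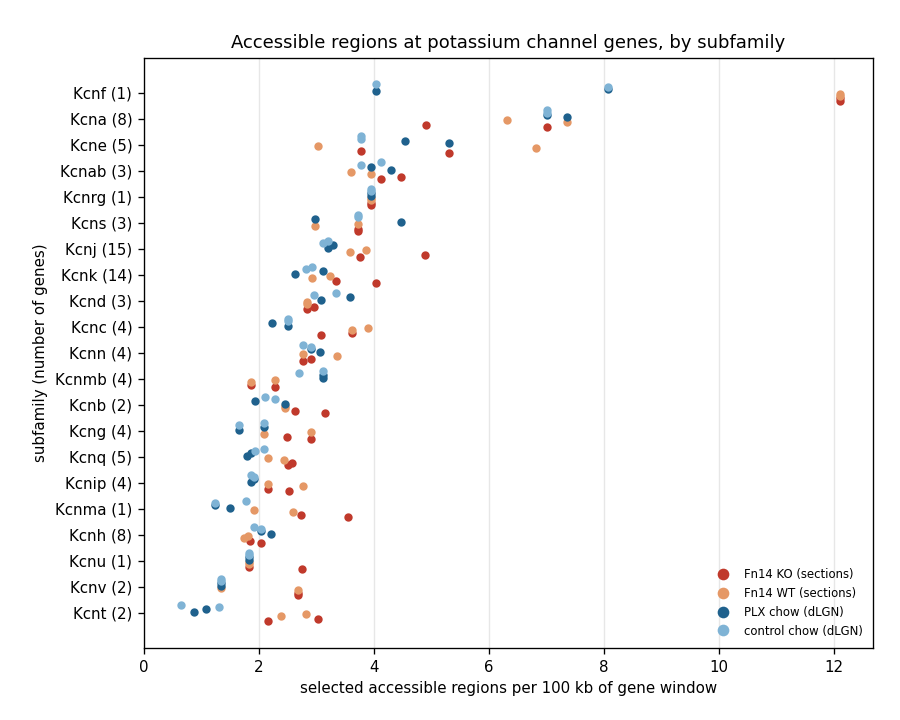
Selected regions per 100 kb of gene window (horizontal axis) for 21 subfamilies (vertical axis, number of genes in brackets), with 1 point per library coloured by group. Kcnf and Kcna lie highest at 9.07 and 6.75 on average and Kcnt lowest at 1.78. In Kcnc, Kcnf, Kcnip, Kcnj, Kcnma, Kcnq and Kcnt the 4 dLGN points lie below the 4 section points. In Kcnmb they lie above.

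The highest peaks at members, by the authors' −log10 p, lay in the windows of the inward rectifiers, where the maximum ran from 280 to 820 over the libraries. In every library but KO 1 this maximum was at Kcnj10, 1939 bp beyond the gene, in a window with 1 other protein-coding gene. In KO 1 it was at Kcnj14, 1511 bp beyond the gene, in a window with 3 others. The Kcnn windows reached 216 to 518, led by Kcnn1, and the Kcnh windows 225 to 461, led by Kcnh4 and Kcnh6. The strongest regions of Kcnn1, Kcnh4 and Kcnh6 also lay outside the gene, by 2894, 1610 and 774 bp. Their windows hold 2, 3 and 2 other protein-coding genes. These peaks, and those at Kcnj10 and Kcnj14, are therefore not the members' alone. The fold enrichment of a peak, as the authors give it, reached 12.9 to 23.3 in the Kcnk windows and 14.0 to 22.2 in the Kcnj windows. The Kcnk maximum was at Kcnk6, 5248 bp beyond the gene, in a window with 2 other protein-coding genes. Judged by the highest library of each subfamily, the lowest maxima were those of Kcnf (27 to 77.5 as −log10 p), Kcnt (54.5 to 89.2) and Kcnv (57.6 to 94.9). In their lowest library Kcns (40.4), Kcnma (49.0) and Kcnrg (54.1) also lay below Kcnt and Kcnv. Thus the dense Kcnf1 window held only modest peaks.

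The comparison between tissues had 4 libraries on each side, against 2 in the KO and chow comparisons. The members held 311 to 321 selected regions in the 4 dLGN libraries (318 ± 4.51, SD, n = 4) and 340 to 382 in the section libraries (362 ± 17.6, SD, n = 4), with no overlap. Region counts were compared gene by gene with limma on log2(count + 0.5) over 17346 genes, of which 91 were members, with Benjamini-Hochberg adjustment and a threshold of 0.05. Because whole-number counts often tie within both groups, which gives a variance of 0, a change is reported only where a second fit, whose prior variance left out tied genes, also passed. In both fits 7 members rose and 9 fell in dLGN relative to sections. Over all genes 4.77% rose and 6.19% fell (11.0% in all), and the members' shares were 7.69% and 9.89% (17.6% in all). The planned fit alone called the same numbers of members, against 4.95% and 6.38% of all genes (11.3% in all), and the second fit alone 8 higher and 17 lower, against 7.60% and 10.7%. Libraries of the tissues did not overlap in 7 members with higher counts in dLGN (7.69%, against 5.91% of all genes) and 12 with lower counts (13.2%, against 7.24%), together 19 (20.9%, against 13.2%). The median log2 difference was -0.19 over the members and 0.00 over all genes, but many genes stood at exactly 0. All genes also leaned lower in dLGN, with 44.8% below 0 and 30.6% above. Of the 91 members 56 lay below 0, 25 above and 10 at 0. The mean was -0.28 over members and -0.08 over all genes. The part of gene length and region number in this contrast was not tested. Tissue differs here together with age, mouse cohort, freezing and feeding, and these cannot be told apart. Fewer cells with an open region and weaker opening per cell cannot be told apart either in bulk nuclei. The cortical and hippocampal markers given above were also lower in dLGN, by a median of -0.79 on the log2 scale, and their part in the members' differences was not tested.

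Among voltage-gated genes 4 of 39 rose and 4 fell. Kcnc4, of the fast-gating Kcnc family, had 4, 4, 4 and 5 regions in KO 1, KO 2, WT 1 and WT 2 and 1 in each dLGN library (log2 difference -1.66, SE 0.17, limma adjusted p = 7.0e-06 and 5.7e-05). It was 1 of 2 members of the 16 that still passed with the WT and control chow libraries alone. Kcnh3, an ELK-type channel of the forebrain, had 4, 3, 2 and 2 against 1 in each dLGN library. At the lower end of Kcnh3 a peak stood in all 4 section libraries, with a −log10 p of 16.9 to 28.3, and in 1 dLGN library with 2.63.

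The voltage-gated genes with more regions in dLGN were Kcna4, Kcnh5, Kcnh8 and the silent subunit Kcns3. Kcna4, which encodes an inactivating Shaker-type channel, had 3 regions in every section library and 7, 6, 6 and 7 in PLX chow 1, PLX chow 2, control chow 1 and control chow 2 (log2 difference 1.00, SE 0.13, limma adjusted p = 4.7e-05 and 1.6e-04). The groups did not overlap, but with all deposited regions the difference was -0.02. Kcnh5 had 4, 5, 3 and 5 regions in sections and 10, 10, 10 and 9 in dLGN (log2 difference 1.13, SE 0.15). Kcnh8, of the ELK type, had 2 to 4 against 6 to 7, and Kcns3, a modifier of Kcnb channels, had 1 in every section library against 2 to 3. Kcnd2, the A-type channel of dendrites, did not pass in both fits and had 9, 12, 11 and 8 regions in sections and 12, 16, 14 and 15 in dLGN, which overlap at 12. Kcna1, Kcna2, Kcnc1 and Kcnh7 overlapped between tissues.

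Of the 8 genes of the Kcnma, Kcnn, Kcnt and Kcnu subfamilies, which open to calcium or sodium except for the pH-sensitive Kcnu1, 1 rose and 2 fell, and their summed regions were 48 to 58 in sections and 36 to 38 in dLGN. Kcnn3, an SK channel behind the afterhyperpolarization, had 4, 7, 5 and 5 regions in sections and 2, 2, 2 and 3 in dLGN (log2 difference -1.06). Kcnt2, a sodium-activated channel, had 7, 12, 10 and 13 against 4, 5, 6 and 3 (log2 difference -1.14). Kcnn2, the SK channel of the same family, had 10, 8, 10 and 9 regions in sections and 14, 13, 13 and 11 in dLGN (log2 difference 0.44), but its direction turned with 100000 regions (-0.25), all deposited regions (-0.07) and the q limit (-0.22). Kcnma1, the BK channel, had 26, 20, 19 and 14 regions in sections and 11, 9, 9 and 13 in dLGN, with a limma adjusted p of 0.053 in the planned fit and 0.0028 in the second. These groups did not overlap, and the KO libraries were the highest.

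Auxiliary subunits gave 2 genes that rose and 2 that fell of 16 tested. Kcnmb2, a beta subunit that inactivates BK channels, had 5, 3, 4 and 4 regions in sections and 9, 8, 8 and 10 in dLGN (log2 difference 1.05, SE 0.15, limma adjusted p = 0.0054 and 3.2e-04). Kcne4, an inhibitory small subunit, had none selected in sections and 3, 1, 1 and 1 in dLGN. The beta subunit Kcnab3 had 4 in every section library and 2 in every dLGN library, and Kcnip4, a calcium-binding partner of Kcnd channels, had 17, 16, 21 and 17 against 8, 12, 12 and 9. At Kcnab1 the counts overlapped (15 to 18 in sections and 18 to 22 in dLGN), and part of the regions were selected in 1 tissue alone, as described below.

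Of 14 inward rectifiers tested only Kcnj14, which encodes a neuronal one, passed, in a window with 3 other genes. Its counts were 3 regions in every section library and 2 in every dLGN library, a tie within both groups. Kcnj14 no longer passed in 14 of 17 alternatives, among them every left-out replicate. Kcnj10 and Kcnj16, which form the inward rectifier of astrocytes, held 6 to 7 and 1 to 2 regions over the 8 libraries, and Kcnj6, a G-protein-gated channel, held 7, 14, 6 and 7 in sections against 5 to 6 in dLGN. None of the 14 two-pore genes passed. Kcnk12 had 5, 5, 5 and 6 regions in sections and 2, 2, 4 and 4 in dLGN, with no overlap and a limma adjusted p of 0.097 in the planned fit and 0.014 in the second. Kcnk1, Kcnk2, Kcnk3 and Kcnk9, leak channels of neurons and glia, overlapped between tissues.

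Among 33 genes for channel partners and the related HCN pacemaker channels, 2 rose and 3 fell in dLGN in both fits. Abcc9, the sulfonylurea receptor that pairs with Kcnj8 and Kcnj11, had no selected region in sections and 2, 1, 1 and 1 in dLGN, and Amigo1, a partner of Kcnb channels, had 3, 2, 3 and 2 in sections and 1 in each dLGN library. The list's median log2 difference was 0.00, the same as over all genes.

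Of the 16 genes, 8 passed whichever library was left out, among them Kcnc4, Kcnab3, Kcna4, Kcne4, Kcnh5 and Kcnmb2. None of the 16 (0) passed under every alternative tried, which also changed the selection and the window. Without PLX chow 1 only these 8 of the 16 remained (9 members passed in all), and 11 to 13 remained without any other single library.

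**Figure D3:**
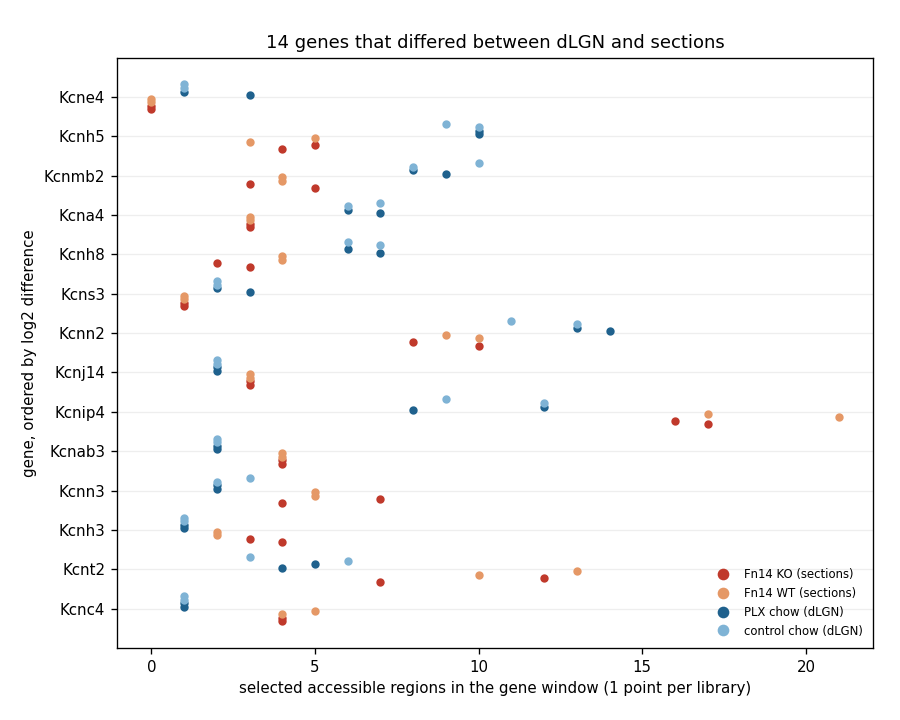
Selected regions in the gene window (horizontal axis, 1 point per library, coloured by group) for 14 of the 16 genes that passed in both fits between dLGN and sections, ordered by log2 difference. Kcnc4 stands at 1 in all dLGN points and at 4 to 5 in sections, and Kcnh5 at 9 to 10 in dLGN and 3 to 5 in sections.

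Gene totals can hide an exchange of regions within the same gene. Counting regions selected in all 4 libraries of one tissue and in none of the other, members held 52 for dLGN and 58 for sections among their 652 regions (7.98% and 8.90%, against 8.94% and 6.40% of all regions). Of the members 39 held such a region and 20 held both kinds. In dLGN 42 of the 52 and in sections 45 of the 58 lay inside the gene. These counts were not made over all genes, and the median member is longer than the median gene (32.7 kb against 17.2 kb). Whether members hold both kinds more often than other genes of their length was therefore not tested. Under the stricter rule that no deposited peak may overlap in the other tissue, 6 regions were called for dLGN (2.52% of those selected in every dLGN library, background 2.46%) and 13 for sections (5.63%, background 5.22%), so both shares were near the background. Of these regions 11 lay inside the gene and 8 outside, and where RefSeq lists a start, the nearest centre lay at -3336 bp, upstream of Kcnh8. Without KO 1 the 19 called regions became 29.

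Kcnab1 shows the exchange most fully, with 5 regions selected in all 4 dLGN libraries alone and 4 in all section libraries alone. A region 5482 bp outside the gene at chr3:64942922-64943730 had a −log10 p of 65.2, 30.5, 73.3 and 68.3 in PLX chow 1, PLX chow 2, control chow 1 and control chow 2 and no peak in sections. Inside the gene, chr3:65037402-65038153 had 36.2, 33.9, 43.6 and 43.4 in KO 1, KO 2, WT 1 and WT 2 and no peak in dLGN. A further region, at chr3:65158079-65158898, was selected in dLGN at 94.5 to 135, with 2.40 to 8.53 in sections.

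Kcnh5 and Kcnh8 also held called regions of both kinds, as did Kcnn2. Beside Kcnh5, both regions lay beyond the gene, one with peaks in sections only (21.7 to 74.6 at chr12:75182635-75183277) and one with peaks in dLGN only (33.3 to 61.9 at chr12:75186879-75187424). At Kcnh8 the section region (28.9 to 43.4 at chr17:52920500-52921456) lay inside the gene, as did a region selected in dLGN alone at 65.3 to 107 (chr17:52913799-52914729). Of the 6 regions called for dLGN under the stricter rule, the one with the highest −log10 p in its weakest library was beside Kcne4 at chr1:78826365-78827034, 6333 bp beyond the gene, with 105, 64.5, 99.0 and 107. Kcnj3, a G-protein-gated inward rectifier, held 2 section regions inside the gene and Kcnh7 1 dLGN region.

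**Figure D4:**
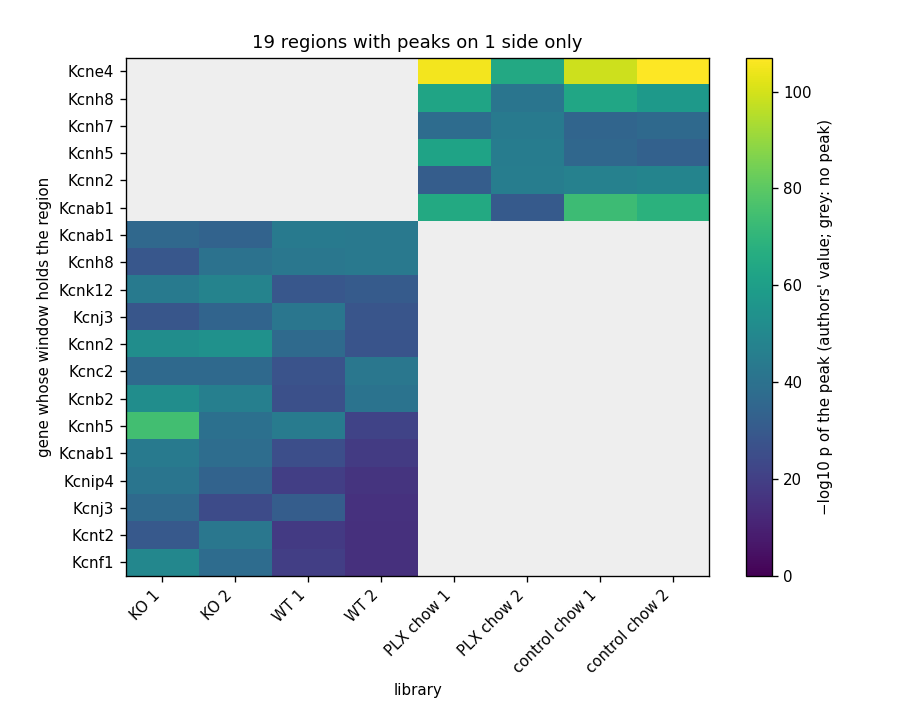
The authors' −log10 p (colour, grey for no peak) in each of 8 libraries (horizontal axis) for the 19 regions at members called between tissues (vertical axis, by gene). The upper 6 rows have peaks in dLGN libraries only, led by Kcne4, and the lower 13 in section libraries only.

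The genotype comparison asked how accessibility differs without Fn14. The members held 382 and 368 selected regions in KO and 359 and 340 in WT (375 ± 9.90 against 350 ± 13.4, SD, n = 2 each), so the KO libraries were the higher 2. The planned limma fit called 2 members higher in KO (2.20%, against 3.89% of all genes) and 0 lower (2.53% of all genes), or 2.20% of members and 6.42% of all genes in all: Kcnk3, an acid-sensitive leak channel, with 3 and 3 regions against 2 and 2, and Kcnc1 with 2 and 2 against 1 and 1. Both rest on tied counts, and in the second limma fit no member passed, where 0.110% of all genes were higher and 0.0231% lower. At an unadjusted p under 0.05, 5 members passed in the planned fit and 8 in the second, where 3.47% of all genes did. The median log2 difference was 0.00 over members and over all genes, but many genes stood at exactly 0. Of the 91 members 44 lay above 0, 23 below and 24 at 0. Over all genes 29.8% lay above and 25.4% below. The mean was 0.15 over members and 0.04 over all genes.

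The libraries did not overlap in 10 members with higher counts in KO (11.0%, against 7.41% of all genes) and in 3 with lower counts (3.30%, against 5.29%), together 13 (14.3%, against 12.7%). Kcnma1 had the most regions among them, 26 and 20 in KO and 19 and 14 in WT, so that the ranges nearly met. Kcnt1, a sodium-activated channel, had 3 and 2 against 1 and 0, and Kcnab2 had 5 and 4 against 2 and 2. Kcnq5, Kcnh2, Kcnh3, Kcnj4 and Kcnj11 are the other genes higher in KO, of which Kcnq5 and Kcnh2 turned direction with 25000 regions (-0.33 and -0.13 on the log2 scale). The 3 lower in KO were Kcnc2 (2 and 4 against 5 and 5), Kcnh8 (3 and 2 against 4 and 4) and Kcnn4 (0 and 0 against 2 and 1), and Kcnn4 turned direction with 100000 regions (0.37), all deposited regions (0.53) and the q limit (0.71). The 10 microglial markers, of which Tmem119 had none in any library, held 14 to 15 regions in KO and 12 to 13 in WT, and their part in these counts was not tested. No region at a member was called for KO, out of 299 selected in both KO libraries (background 0.0298%), or for WT, out of 278 (background 0.00995%).

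The chow comparison asked how dLGN chromatin differs when microglia are depleted. The members held 321 and 320 regions with PLX chow and 311 and 318 with control chow (320 ± 0.707 against 314 ± 4.95, SD, n = 2 each). The microglial markers held 37 and 41 deposited regions with PLX chow and 51 and 53 with control chow, but among selected regions the ranges, 10 to 11 and 11 to 13, met. The planned limma fit called 1 member higher with PLX chow (1.10%, against 1.54% of all genes) and 1 lower (1.10%, against 1.89%), in all 2.20% against 3.43%. These were Kcnmb4, the neuronal BK beta subunit, with 4 and 4 regions against 3 and 3, and Kcnk12 with 2 and 2 against 4 and 4. Both are ties, and no member passed the second limma fit, where 0.00577% of all genes were higher and 0 lower. At an unadjusted p under 0.05, 3 members passed in the planned fit and 2 in the second, where 0.882% of all genes did.

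Libraries did not overlap in 3 members with higher counts under PLX chow (3.30%, against 2.55% of all genes) and 2 with lower counts (2.20%, against 3.04%), together 5 (5.49%, against 5.60%), which is near the background. Kcnk10, a mechanosensitive leak channel, had 4 and 6 against 2 and 2, Kcnd3, an A-type channel, had 12 and 11 against 9 and 10, and Kcnq3 had 9 and 10 against 12 and 11. Together with Kcnmb4 and Kcnk12, each of these 5 turned direction when all deposited regions were counted. At the members known from microglia Kcna3 had 1 region in every library of both diets, Kcnk6 1 in each, Kcnn4 none in any, and Kcnk13 had 2 and 3 against 2 and 2. The vascular Kcnj8 had 1 region in each library. No region at a member was called for PLX chow, out of 271 selected in both libraries (background 0.00233%), or for control chow, out of 274 (background 0%).

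**Figure D5:**
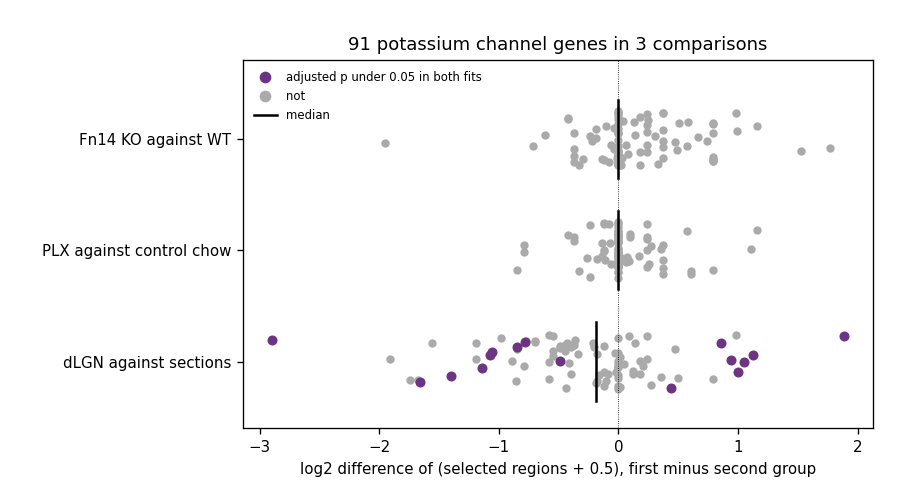
Log2 difference of selected regions plus 0.5 (horizontal axis, first minus second group) for 91 members in 3 comparisons (vertical axis), with medians as bars and genes that passed in both fits in purple. Only the tissue comparison holds such genes, 7 to the right and 9 to the left, and its median is -0.19 against 0.00 in the other 2. It has 4 libraries on each side. The other 2 have 2 in each group, and there 0 of all 17346 genes passed.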

How the data were processed

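ATAC-seq peaks of 8 mouse libraries were used as deposited. Per the authors' deposited instructions, the ENCODE pipeline for ATAC-seq was run on paired reads and the mm10 build, allowing 0 multimapping and peaks up to a p of 0.01. The submitters' processing notes name deepTools 3.5.0. Aligner and peak caller: not given in the sources used here. Each list gives the authors' score per peak (not used), fold enrichment as a ratio over local background, and p-value and q-value as −log10, per the deposited lists, together with a summit position. They served to rank, filter and describe peaks of the same list. Peaks were called per library. Without read counts the depth is unknown, and no interval for counting error is given.

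Overlapping peaks were merged (Python 3.11.15, pandas 2.3.3) and per library the first 50000 by −log10 p were selected. Regions overlapping a gene body extended by 10 kb were counted for 21887 genes, and those with 1 or more in some library (17346) were tested with limma 3.58.1 in R 4.3.3 (trend and robust) on log2(count + 0.5), a pseudocount of 0.5. In the KO, chow and tissue comparisons 44.1%, 52.6% and 25.2% of genes tied in both groups, and 1112 of 1113, 595 of 595 and 685 of 1965 planned calls were such genes. Counts were simulated with 200 genes changed 4-fold, all drawn from genes with a mean of at least 4 regions. The median member held 2.50 regions and the median gene 1.50, so the recovery below does not apply to most of them. With binomial noise, the planned fit made 1169, 1116 and 3 false calls and recovered 40%, 50% and 96% of the changed genes. Under Poisson noise it recovered 0%, 0% and 91% of the changed genes. A fit whose prior variance left out tied genes made 1, 0 and 4 false calls with binomial noise. It recovered 99.5%, 100% and 100% there, against 44.5%, 56% and 91% under Poisson noise. This second fit was added after seeing the data.

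The members and lists were chosen with earlier results of these data known. Named genes were a fixed set of channels known from neurons, glia, microglia or vessels, the densest and sparsest member of each subfamily, up to 10 members per direction by limma, up to 5 per direction whose libraries do not overlap, members with called regions, and those with the strongest or no promoter peak. Genes named for a subfamily's highest peak were chosen after their values were seen. A few genes are counted in all totals but not reported here by name. Alternatives were 25000 or 100000 regions, all deposited regions, a q limit of 0.05, the gene body alone, region centres, a pseudocount of 1, a mean of at least 1 region, a replicate block, a looser absence rule, a 50% overlap, each replicate left out, and WT and control chow libraries only.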

Additional observations from a re-analysis of the deposited data

How the results depend on the processing

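The tissue count of 16 members in both fits became 30 with all deposited regions, 25 with the q limit, 2 with WT and control chow libraries only, and 9 to 15 with each replicate left out. The same 16 in the planned fit became 30 and 25 with those settings and 25 in the fit without tied genes (8 higher, 17 lower). Shared genes were fewer: 5 of the 16 stayed with 25000 regions, 8 with 100000, 6 with all deposited regions and 5 with the q limit. Without 1 library, 8 (PLX chow 1), 11 (PLX chow 2), 12 (control chow 1), 11 (control chow 2), 12 (KO 1), 11 (KO 2), 13 (WT 1) or 12 (WT 2) stayed. The planned count of 2 in the KO comparison became 6 with 25000 regions, 5 with 100000, 1 with all deposited regions, the q limit or region centres, 0 without tied genes, and 10 to 22 with a replicate left out. In the chow comparison 2 became 5 with 100000 regions or the q limit, 1 with the gene body alone, 0 without tied genes, and 4 to 14 with a replicate left out. In those leave-one-out fits the lone library is assumed to vary like the others. No member passed both fits in either comparison under any setting, but neither did any of the 17346 genes in the fits with all libraries (0). The lack of calls is therefore not particular to the members. In simulated Poisson counts the planned fit recovered 0% of 4-fold changes there. With binomial noise it recovered 40% (KO) and 50% (chow), beside 1169 and 1116 false calls. Which noise is closer to these data was not tested, so how often the rule could make calls is unknown. The median member difference in the KO comparison moved to 0.15 with all deposited regions and 0.23 with the q limit, and the direction of differences there is relative to that shift.

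Called regions rose from 0 to 7 (KO) and 2 (chow) with 100000 regions and to 36 and 17 when absence was judged on selected regions. Between tissues 19 became 95 with 100000 regions, 2 with 25000, 110 with the looser absence, 11 with the gene body alone, 34 with WT and control chow libraries only, and 19 to 29 with a replicate left out (29 without KO 1).

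Directions turned at Kcnh2 (-0.13) and Kcnq5 (-0.33) with 25000 regions in KO, at Kcnq5 (-0.08) with all deposited regions, and at Kcnn4 (0.37, 0.53 and 0.71 with 100000, all deposited regions and the q limit). In the chow comparison Kcnk12 (0.22, 0.09 and 0.18) and Kcnmb4 (-0.27, -0.33 and -0.36) turned with the same 3 settings, Kcnq3 with the first 2 (0.05 in both), Kcnd3 with the last 2 (-0.12 and -0.10) and Kcnk10 with all deposited regions (-0.08). Between tissues 3 of the 16 genes turned, among them Kcna4 with all deposited regions (-0.02) and Kcnn2 with 100000 (-0.25), all deposited regions (-0.07) and the q limit (-0.22). The cause was not tested. With the replicate block 13 of the 16 tissue genes stayed in both fits, and the planned counts in the KO and chow comparisons stayed at 2 each. Same-numbered libraries correlated at 0.088 (KO and WT) and -0.023 (chow) and share only a number.

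Depth is unknown, and the KO and chow comparisons rest on 2 libraries per group.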
